A study of Homo sapiens with 11 samples.

Results

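Integrin subunits were described in the nickel series by name, as 6 alpha subunits (ITGA2, ITGA3, ITGA4, ITGA5, ITGA6 and ITGAV) and 4 beta subunits (ITGB1, ITGB3, ITGB4 and ITGB6). All 10 were listed among the 28252 genes of the RNA-Seq of RT4 cells and among the 26237 promoters of the H3K4me3 ChIP-Seq of BEAS-2B cells. The rule uses their names and no measured value, but the members were chosen with earlier results of these data known. Counts of members set beside the shares of all genes or promoters are therefore descriptions and not tests. RT4 is a human bladder cancer line with epithelial character, and BEAS-2B is an immortalized line of human bronchial epithelial cells. Untreated (UT) cells had no nickel, and nickel-exposed (Ni-E) cells had 100 μM NiCl2 for 6 weeks. Nickel-washed-out (Ni-W) RT4 cells were then kept without nickel for 2 weeks, whereas the Ni-W BEAS-2B cells were kept without nickel for over 6 months. RT4 RNA had 2 replicates per group. The H3K4me3 values are those of 1 library per condition, although ChIP on 2 biological replicates is described, and the Ni-W BEAS-2B cells grew from a single randomly picked colony, so that Ni-W stands for 1 clone there. The 2 input libraries and RNA of BEAS-2B cells were not analysed here, so RNA and H3K4me3 come from different cell lines and are not matched.

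Integrins are cell surface receptors made of an alpha and a beta subunit, and the pair sets which matrix protein is bound. ITGB1 pairs with many alpha subunits, whereas ITGB4 pairs with ITGA6 alone, and this pair anchors epithelial cells to laminin in hemidesmosomes. ITGB6 pairs with ITGAV alone, is made mainly by epithelial cells, and releases active TGF-beta from its latent complex. H3K4me3 is a histone mark of active promoters and is usually high at promoters rich in CpG dinucleotides.

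The 250 bases before the transcription start are shown for 3 promoters that span the range of H3K4me3 in this family. ITGB1 had the highest level in UT cells among the 7 members with an entry in the set of RefSeq promoter sequences used here (GRCh38.p14), and ITGB6 had the lowest. ITGA4 was the only member with at least 1 RPKM (defined with the H3K4me3 results) that passed a 1.5-fold difference in Ni-W cells. ITGA3, ITGB3 and ITGB4 had no entry in that set and are named only. Capitals mark CG dinucleotides, and the sequences run 5′ to 3′ from chr10:32958231-32958480 (minus strand), chr2:160200273-160200522 (minus strand) and chr2:181457136-181457385 (plus strand).
ITGB1: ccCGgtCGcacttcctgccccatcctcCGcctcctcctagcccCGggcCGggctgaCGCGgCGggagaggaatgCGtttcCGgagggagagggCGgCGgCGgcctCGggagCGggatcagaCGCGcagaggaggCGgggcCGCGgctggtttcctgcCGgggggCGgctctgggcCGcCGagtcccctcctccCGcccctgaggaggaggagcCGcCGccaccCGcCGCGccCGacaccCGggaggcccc
ITGB6: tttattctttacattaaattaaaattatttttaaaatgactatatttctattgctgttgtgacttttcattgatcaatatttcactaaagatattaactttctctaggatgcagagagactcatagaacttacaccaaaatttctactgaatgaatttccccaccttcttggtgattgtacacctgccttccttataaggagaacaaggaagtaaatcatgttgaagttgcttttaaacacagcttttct
ITGA4: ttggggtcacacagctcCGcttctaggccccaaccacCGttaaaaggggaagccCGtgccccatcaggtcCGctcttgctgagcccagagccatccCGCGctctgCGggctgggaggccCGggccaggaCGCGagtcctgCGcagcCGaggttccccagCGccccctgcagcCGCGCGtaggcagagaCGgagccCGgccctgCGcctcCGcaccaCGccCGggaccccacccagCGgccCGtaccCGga
The ITGB1 stretch held 32 CpG and the ITGA4 stretch 25, while the ITGB6 stretch held 0. The median over all 35116 stretches of the same kind was 11, and 90.5% held fewer CpG than that of ITGB1. Among the remaining members, the stretch of ITGA2 held 26 CpG, that of ITGAV 18, that of ITGA5 12 and that of ITGA6 8. The letters GGGCGG, read on either strand and known as the GC box, matched 4 times in ITGA2, 3 times in ITGB1 and once in ITGA5. They had no match in ITGA4, ITGA6, ITGAV and ITGB6, and were found in 42.6% of all stretches. The letters TATAAA, read on either strand, matched once in ITGA6 and in no other member, against 10.7% of all stretches.

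RT4 libraries held 17075833 to 27736454 estimated counts. Replicate 1 of each group was the shallower library, with at most 18280556 counts, and replicate 2 held at least 25721265. All 14 urothelial and epithelial markers examined were detected, with a summed level of 13863 to 15121 TPM (a level scaled for transcript length and library size) in UT, 14569 to 14828 in Ni-E and 14420 to 17393 in Ni-W cells. Fibroblast markers summed to at most 5.21 TPM and endothelial markers to at most 2.09 TPM, with 2 of 7 fibroblast markers at 0 in all samples. Leukocyte markers summed to 7.45 to 7.91 TPM in UT and at most 13.9 TPM in Ni-E and Ni-W cells. Of this sum, CD68 alone gave 7.33 and 7.30 TPM in UT and 10.55 to 13.43 TPM in Ni-E and Ni-W cells. Each of the other leukocyte markers stood at 0.53 TPM or less in every sample. In such bulk RNA, fewer cells of a kind and less RNA per cell cannot be told apart.

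RT4 cells expressed these subunits at very unequal levels. ITGA3, which pairs with ITGB1 to bind laminin, had the highest mean at 720.2 TPM (608 to 899 over 6 samples), and ITGB4 followed at 394 TPM (352 to 445). The ranges of these leading subunits did not overlap each other or that of any other member. Next came ITGAV at 73.2 TPM (34.9 to 167), ITGA6 at 50.1 TPM (17.7 to 88.4), ITGB1 at 44.3 TPM (14.4 to 96.3), ITGA2 at 36.3 TPM (11.4 to 68.9) and ITGB6 at 26.6 TPM (17.3 to 42.3). These 5 ranges overlapped, so their order is within the spread of the samples. ITGA5, the alpha subunit of the main fibronectin receptor, stood at 2.01 TPM (1.48 to 2.56).

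The lowest members were near or at 0. ITGB3, which pairs with ITGAV to bind vitronectin, had 1 and 0 counts in UT, 5 and 1 in Ni-E, and 1 and 4 in Ni-W cells. ITGA4, a subunit typical of leukocytes that binds VCAM1 and fibronectin, had 0 counts in all 6 samples, which at 3 counts allows at most 0.109 to 0.172 CPM (counts scaled to library size) per library. Neither passed the filter on low counts, so 8 of the 10 members entered the test.

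ITGA3 alone made up 70.2% to 90.3% of the summed TPM of the alpha members, and ITGB4 made up 75.7% to 91.2% of that of the beta members. The 10 members held 96.6% to 97.3% of the TPM of all 26 integrin subunits examined. The alpha sum over the beta sum was 1.71 and 1.72 in UT, 2.12 and 2.12 in Ni-E, and 1.87 and 1.81 in Ni-W cells. The groups did not overlap in this ratio, which is given as a description with no test, since an exact permutation test of 2 against 2 samples cannot reach a p below 0.05. Among the other 16 subunits, 4 had a mean of at least 1 TPM, and these were ITGB5 (28.5 TPM), ITGAM (6.21 TPM), ITGAE (4.76 TPM) and ITGB8 (1.48 TPM).

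The 8 tested subunits split into those that differed strongly between the replicates and those that did not. ITGB1 was 3.38 times higher in replicate 1 than in replicate 2 of UT cells, 2.47 times in Ni-E and 5.10 times in Ni-W cells. For ITGA2, the collagen-binding partner of ITGB1, this ratio was 2.78, 2.20 and 3.94, for ITGA6 2.68, 1.85 and 3.24, and for ITGAV 2.15, 1.91 and 3.31. ITGA3 and ITGB4 stayed between 0.916 and 1.09 in all groups. In a model with the replicate number as a term, ITGA2, ITGA6, ITGAV and ITGB1 were called lower in replicate 2, by 1.26 to 1.80 on the log2 scale, beside 12.7% of all tested genes called lower there. The transcripts of these 4 genes are poor in G and C, at 38.3% to 42.5%, whereas those of ITGA5, ITGA3 and ITGB4 have 58.05%, 60.9% and 63.6%. ITGB6, at 40.2%, had replicate ratios of 1.23 to 1.71, and ITGA5 had 1.08 to 1.54. Over 13754 tested genes, Spearman's correlation of GC content with the log2 difference of replicate 2 from replicate 1 was 0.338 in UT, 0.127 in Ni-E and 0.464 in Ni-W cells, where the genes share the same 2 libraries. The part of GC content in the replicate differences of these subunits was not tested.

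**Figure D1:**
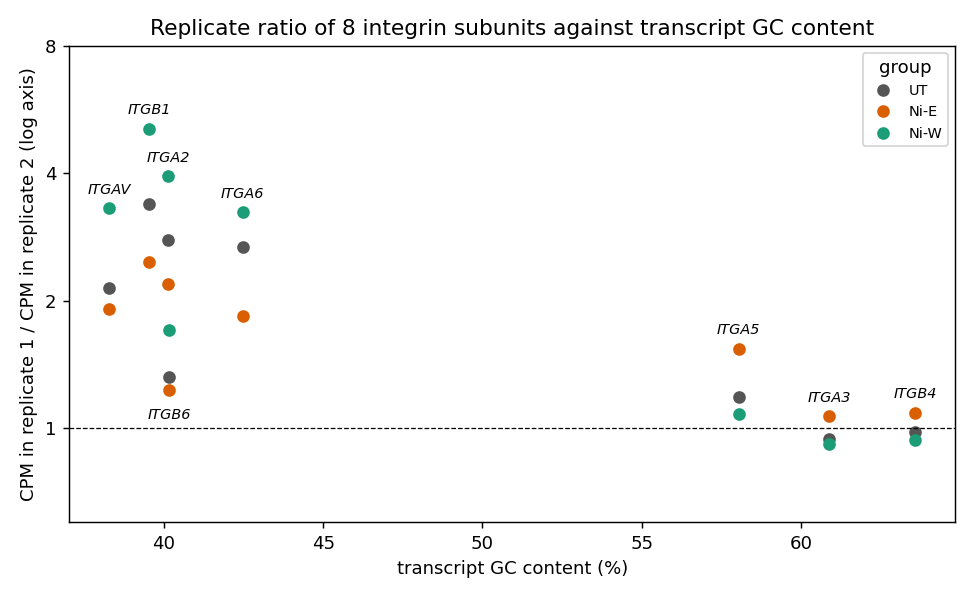
CPM in replicate 1 over CPM in replicate 2 (y axis, log scale) against the GC content of the transcript (x axis, percent) for the 8 tested subunits, with 1 point per group. ITGA2, ITGA6, ITGAV and ITGB1 sit at 1.85 or more, while ITGA3 and ITGB4 sit within 0.916 to 1.09.

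**Figure D2:**
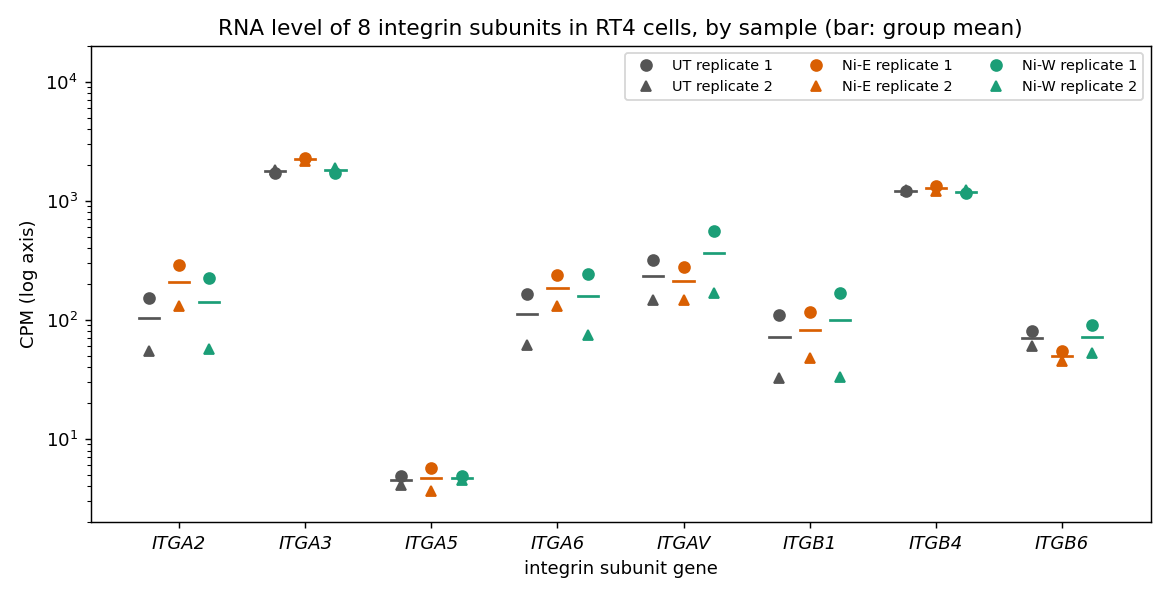
CPM of the 8 tested subunits (y axis, log scale) in each RT4 sample, with circles for replicate 1, triangles for replicate 2 and a bar for the group mean. Replicates of ITGA3 and ITGB4 lie close together, while those of ITGA2, ITGA6, ITGAV and ITGB1 differ more than the group means do.

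The first question was which subunits changed during exposure. None of the 8 tested members passed the call, which asks for a change of at least 1.5-fold and an adjusted p under 0.05 in edgeR's quasi-likelihood test, against 2.17% of the 14502 tested genes (1.45% higher and 0.71% lower). The median log2 fold change of the members was 0.13 and that of all tested genes -0.01. ITGA2 had 152 and 54.8 CPM in UT and 287 and 131 CPM in Ni-E cells (replicates 1 and 2). Each Ni-E sample lay above the UT sample of its own number, yet the groups overlapped. The log2 fold change was 1.01 (SE 0.795, edgeR adjusted p = 0.837). With the replicate number as a block, it was 1.10 (SE 0.164, edgeR adjusted p = 0.00106), which passed the call.

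ITGA6, the laminin-binding partner of ITGB4, had 164 and 61.2 CPM in UT and 241 and 130.4 CPM in Ni-E cells. Here too the Ni-E sample was the higher of each number and the groups overlapped. The log2 fold change of ITGA6 was 0.72 (SE 0.701, edgeR adjusted p = 0.911), and with the block 0.84 (SE 0.161, edgeR adjusted p = 0.00493), again past the call. Thus 0 of 8 members were called without the block and 2 of 8 with it, where the blocked share over all tested genes was 12.6% (7.64% higher and 5% lower).

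ITGA3 had 1723 and 1824 CPM in UT and 2307 and 2162 CPM in Ni-E cells, so that every Ni-E sample lay above every UT sample. Its log2 fold change was 0.33 (SE 0.159, edgeR adjusted p = 0.534), and with the block its edgeR adjusted p was 0.0372, at a change under 1.5-fold. ITGB6 had 80.0 and 60.4 CPM in UT and 55.2 and 44.9 CPM in Ni-E cells, so that every Ni-E sample lay below every UT sample. The log2 fold change of ITGB6 was -0.49 (SE 0.312, edgeR adjusted p = 0.727), with a blocked edgeR adjusted p of 0.0311, again under 1.5-fold. In the blocked fit, 17.8% of all tested genes had an adjusted p under 0.05, of whatever size. Groups did not overlap for these 2 of the 8 tested members and for 39.6% of all tested genes.

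ITGB4 had 1208 and 1234 CPM in UT and 1328 and 1221 CPM in Ni-E cells, a log2 fold change of 0.06 (SE 0.155). This subunit therefore varied little, although its partner ITGA6 passed the call with the block. ITGAV had 317 and 147 CPM in UT and 278 and 146 CPM in Ni-E cells, with a log2 fold change of -0.13. ITGB1 had 110.1 and 32.5 CPM in UT and 117 and 47.4 CPM in Ni-E cells, with a log2 fold change of 0.21 (SE 0.919). ITGA5 stayed between 3.68 and 5.68 CPM over both groups. None of these 4 members passed the call in edgeR with or without the block.

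**Figure D3:**
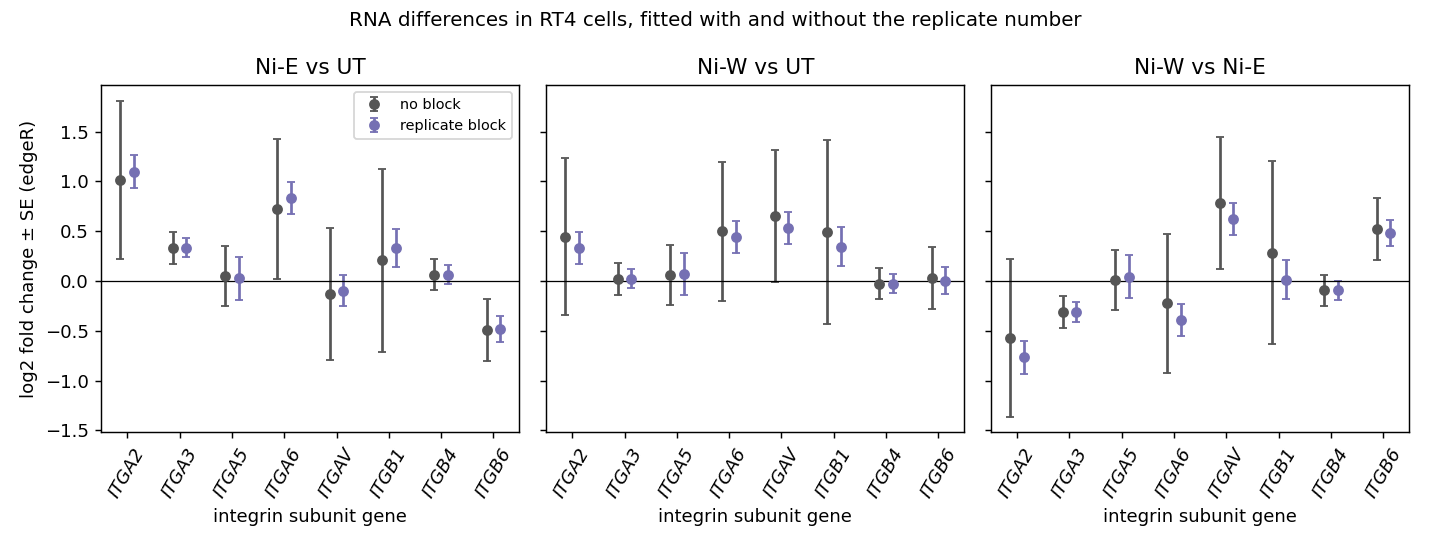
Log2 fold change with its SE (y axis) of the 8 tested subunits in the 3 comparisons of RT4 groups, from edgeR without a block (grey) and with the replicate number as a block (purple). For ITGA2 in Ni-E against UT cells, the SE was 0.795 without the block and 0.164 with it.

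Next, levels 2 weeks after nickel was removed were compared with UT cells. No member was called in Ni-W against UT cells in edgeR without or with the block, against 0.6% of all tested genes without it (0.503% higher and 0.0965% lower) and 8.57% with it (5.79% higher and 2.78% lower). The members' median log2 fold change was 0.25, beside 0.00 for all tested genes. ITGAV had 560.5 and 169 CPM in Ni-W cells. Replicate 1 lay well above the other samples, and replicate 2 lay within the UT range. The log2 fold change of ITGAV from UT was 0.65 (SE 0.665), and with the block 0.53 (SE 0.160, edgeR adjusted p = 0.0589). ITGA2 had 224 and 56.9 CPM, ITGA6 243 and 75.0 CPM, and ITGB1 168 and 32.9 CPM in Ni-W cells. In each of these, the Ni-W sample was at least as high as the UT sample of its number, by less than the gap between the replicates. ITGA3 had 1724 and 1881 CPM and ITGB4 1158 and 1235 CPM. The log2 fold change from UT was 0.02 (SE 0.159) for ITGA3 and -0.03 (SE 0.155) for ITGB4, whose sign turned with other settings. ITGB6 and ITGA5 overlapped with UT cells as well, with log2 fold changes of 0.03 (SE 0.311, a sign that also turned) and 0.06.

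Ni-W cells were then set against Ni-E cells. In edgeR no gene of the 14502 tested was called (0%), with 808 genes at an unadjusted p under 0.05, while DESeq2 called 89 genes higher and 50 lower. With the block, edgeR called 4.52% of the genes (2.72% higher and 1.8% lower), and 2 of the 8 tested members were among them. ITGA2 was lower in Ni-W cells, with a log2 fold change of -0.57 (SE 0.789) without the block and -0.77 (SE 0.164, edgeR adjusted p = 0.0217) with it. Within replicates, the log2 ratio of ITGA2 was -0.36 in replicate 1, which is under 1.5-fold, and -1.20 in replicate 2. ITGAV was higher, at 0.78 (SE 0.666) without the block and 0.63 (SE 0.160, edgeR adjusted p = 0.0484) with it. The blocked call of ITGAV lies close to the threshold, and its within-replicate log2 ratios were 1.01 in replicate 1 and 0.22 in replicate 2. ITGB6 had 90.7 and 53.2 CPM in Ni-W cells and a log2 fold change of 0.52 (SE 0.312) from Ni-E cells, and did not pass the call in edgeR with the block (adjusted p = 0.0640). For ITGA3, every Ni-W sample (1724 and 1881 CPM) lay below every Ni-E sample (2307 and 2162 CPM). No other tested member was separated in this way, beside 25.4% of all tested genes. Its blocked log2 fold change was -0.31 (SE 0.0963, edgeR adjusted p = 0.0987). ITGA5, ITGA6, ITGB1 and ITGB4 were not called with the block either. The members' median without the block was -0.04, beside 0.02 for all tested genes. The 3 comparisons share samples, so the opposite signs of ITGA2, ITGA3 and ITGB6 in the first and the last of them are not independent of each other.

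Calls for the other 16 integrin subunits were 0 in edgeR without the block in every comparison of RT4 groups, over 11 tested. With the block, ITGA1, a collagen receptor subunit with 4 and 3 counts in UT and 27 and 48 in Ni-E cells, rose in Ni-E against UT cells by 3.33 on the log2 scale (SE 0.567). ITGB5, which pairs with ITGAV, rose by 0.70 (SE 0.110) there, and 2 of 11 were thus called, beside 7.64% of all tested genes called higher. ITGAM (0.99, SE 0.147), a subunit typical of myeloid cells, and ITGB8 (0.82, SE 0.217), a further partner of ITGAV, rose in Ni-W against UT cells in the blocked fit, beside 5.79% of all tested genes. ITGAM was also higher in Ni-W against Ni-E cells in that fit (0.66, edgeR adjusted p = 0.0248).

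Among 30 extracellular ligands of integrins, 23 were tested and 4 were called higher and 0 lower in Ni-E against UT cells, beside 1.45% and 0.71% of all tested genes. L1CAM, an adhesion molecule that integrins bind, rose by 3.69 (SE 0.314), LAMA4, a laminin chain, by 2.51 (SE 0.329), TGFB1, whose latent form is bound by ITGAV with ITGB6, by 1.38 (SE 0.161), and COL6A1, a collagen chain, by 1.31 (SE 0.213), all on the log2 scale. With the block, 8 ligands were called higher and 0 lower, beside 7.64% and 5% of all tested genes, with FN1 (fibronectin) among them at 1.64 (SE 0.162). In Ni-W against UT cells, L1CAM alone was called, at 4.07 (SE 0.317), beside 0.503% of all tested genes higher, and the blocked fit called 10 higher and 1 lower, beside 5.79% and 2.78%. The 23 ligands had a median log2 fold change of 0.26 in Ni-E and 0.33 in Ni-W against UT cells. This list, that of the other integrin subunits and the gene lists below were chosen with earlier results of these data known. Their counts beside the shares of all tested genes are therefore descriptions and not tests.

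Inside the cell, 0 of 21 tested adaptors and activators and 0 of 5 inhibitors were called in edgeR in any comparison of RT4 groups. Over all tested genes, 2.17% were called in Ni-E and 0.6% in Ni-W against UT, and 0% in Ni-W against Ni-E cells. With the block, 1 of the 21 was called higher and 1 lower in Ni-E against UT cells, beside 7.64% and 5%. Blocked calls were 2 higher and 0 lower in Ni-W against UT cells, beside 5.79% and 2.78%. Against Ni-E cells they were 2 higher and 0 lower, beside 2.72% and 1.8%. The blocked fit called FLNA, an actin cross-linker that binds integrin tails, higher in Ni-E (0.86, SE 0.0914) and in Ni-W (0.95, SE 0.0916) against UT cells. TGFB1I1, a focal adhesion adaptor, was called lower in Ni-E against UT cells in that fit (-1.41, SE 0.173) and higher in Ni-W against Ni-E cells (1.48, SE 0.173). It also called FERMT2, a kindlin that activates integrins, higher in Ni-W against Ni-E cells (0.72, SE 0.182) and TNS3, a tensin that binds integrin tails, higher in Ni-W against UT cells (0.64, SE 0.105). Of 16 kinases and signalling genes, 2 were called higher and 0 lower in each comparison with UT cells, beside 1.45% of all tested genes higher in Ni-E and 0.503% in Ni-W cells. FYN, a Src family kinase, was higher by 2.95 (SE 0.247) in Ni-E and by 2.24 (SE 0.243) in Ni-W cells. CAV1, the caveolin that links integrins to FYN, was higher by 2.92 (SE 0.281) in Ni-E and by 2.82 (SE 0.281) in Ni-W cells.

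Of 7 hemidesmosome and tetraspanin genes, COL17A1, a collagen of hemidesmosomes, was called higher in Ni-E against UT cells, by 1.25 (SE 0.156). This was 1 of 7, beside 1.45% of all tested genes called higher. The blocked fit also called COL17A1 in Ni-W against UT cells, by 0.83 (SE 0.0961), together with CD82, a tetraspanin that binds integrins, by 0.87 (SE 0.110). These were 2 of 7, beside 5.79% of all tested genes called higher in that fit. Of 14 urothelial and epithelial markers, UPK1A, a plaque protein of urothelium, was called lower in Ni-E cells, by -2.27 on the log2 scale (SE 0.334). That was 1 of 14, beside 0.71% of all tested genes called lower. With the block, 5 of these markers were lower in Ni-E against UT cells, beside 5% of all tested genes, and 5 were higher in Ni-W against Ni-E cells, beside 2.72%, and their part in the differences of the subunits was not tested.

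In BEAS-2B cells, H3K4me3 was counted in 4 kb around each start as RPKM (reads scaled for window length and library size), from 28385725 reads in UT, 37493949 in Ni-E and 29933551 in Ni-W cells. The listed promoters took 37.6% of the reads in UT, 36.0% in Ni-E and 22.9% in Ni-W cells, and the median promoter stood at 1.57, 1.39 and 1.12 RPKM. With 1 library per condition there is no replicate check and no p-value, and the 95% Wilson intervals cover counting error only. All promoter windows have the same length, so promoters can be ranked.

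The subunit promoters covered nearly the whole range of the mark in UT cells. ITGA3 had 12.1 RPKM (11.5 to 12.8) and ITGB1 12.0 RPKM (11.4 to 12.7), above 96.6% and 96.4% of all promoters, and their intervals overlap. ITGA5 followed at 9.86 RPKM (9.29 to 10.4) and ITGAV at 6.54 RPKM (6.09 to 7.03). ITGB3 had 4.26 RPKM (3.90 to 4.66), ITGA2 3.98 RPKM (3.63 to 4.37), and ITGA6 and ITGB4 each 3.33 RPKM (3.01 to 3.68). ITGA4 stood at 1.71 RPKM (1.48 to 1.97), close to the median promoter. ITGB6 had 10 reads, or 0.0880 RPKM (0.0478 to 0.162), and its promoter, without a CpG in the bases shown above, was the only one below 1 RPKM in all 3 libraries.

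The order of the mark did not follow CpG content throughout: ITGA5, with 12 CpG, had more H3K4me3 than ITGA2, with 26. The windows of ITGA3 and ITGB3 also hold the starts of PICART1, 222 bp away, and of ENSG00000259753, 70 bp away, that of ITGA2 holds ITGA2-AS1, 938 bp away, and that of ITGA6 holds ENSG00000226963, 1249 bp away, so these reads cannot be assigned to 1 gene. For ITGB1, neighbours were sought around the GENCODE gene start at chr10:33005792, which is not the start next to the stretch printed above. Other starts near that stretch were therefore not examined. ITGA4 and ITGB3 carried the mark in BEAS-2B cells, while their RNA was at or near 0 in RT4 cells, which are another cell type.

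**Figure D4:**
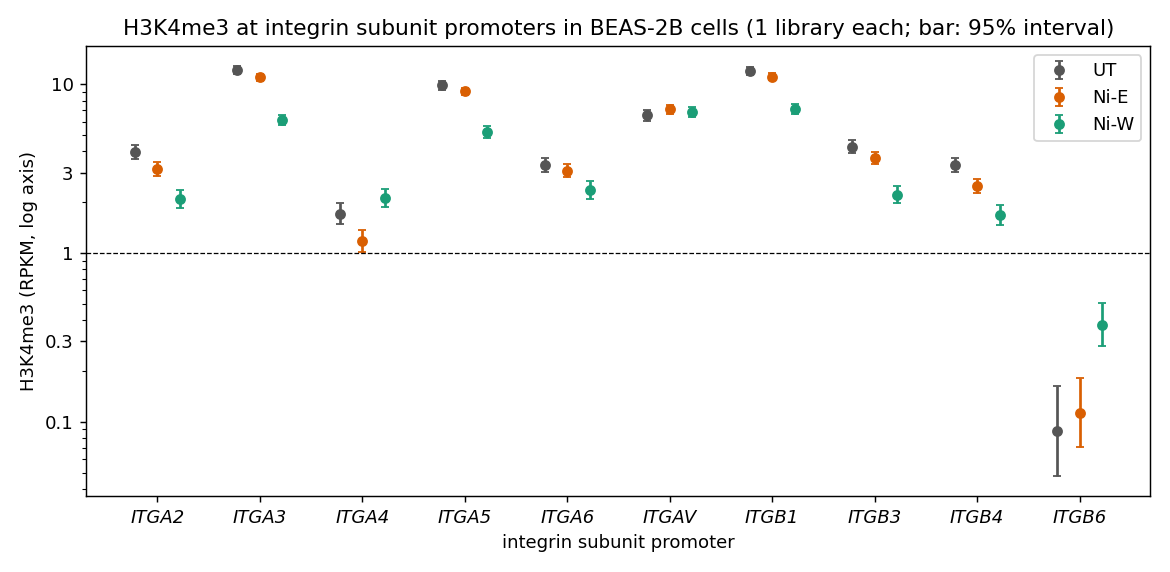
H3K4me3 (RPKM, y axis, log scale) at the 10 subunit promoters in UT, Ni-E and Ni-W BEAS-2B cells, with 95% Wilson intervals from the reads of 1 library each. The dashed line marks 1 RPKM, and only ITGB6 lies below it, at 0.0880 to 0.376.

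During exposure, the promoter levels moved little. Scaled to the median promoter of each library, 0 of the 9 members with at least 1 RPKM were 1.5-fold higher or lower in Ni-E against UT cells, against 1.61% of the 14127 promoters with at least 1 RPKM (1.01% higher and 0.595% lower). Of these 9, ITGAV was highest relative to UT, at 7.11 RPKM (6.70 to 7.55) and a scaled log2 ratio of 0.30 (counting interval 0.16 to 0.43). ITGA4, at 1.17 RPKM (1.01 to 1.36), was lowest, with a ratio of -0.36 (-0.66 to -0.07), and ITGB4, at 2.49 RPKM (2.25 to 2.76), had -0.24 (-0.45 to -0.03). The intervals of the other 7 members, among them ITGA3, ITGA5 and ITGB1, included 0. The median over the 10 members was 0.05, beside 0.11 for all promoters with at least 1 RPKM.

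After removal of nickel, the subunit promoters did not move alike. Scaled to the median, 1 of the 9 members with at least 1 RPKM, ITGA4, was past 1.5-fold higher in Ni-W against UT cells and 0 were past 1.5-fold lower, against 4.39% of promoters higher and 18.4% lower (22.8% in all). ITGA4 had 2.13 RPKM (1.88 to 2.41) in Ni-W cells, 1.75 times its scaled UT level (scaled log2 ratio 0.80, counting interval 0.54 to 1.07). Against Ni-E cells it was 2.25 times higher, again as 1 of these 9, where 4.07% of promoters were past 1.5-fold higher and 30.3% lower (34.4% in all). ITGAV had 6.82 RPKM (6.36 to 7.30) in Ni-W cells, a scaled log2 ratio of 0.55 from UT (0.40 to 0.69). ITGB6 had 10 reads in UT, 17 in Ni-E and 45 in Ni-W cells, the last being 0.376 RPKM (0.281 to 0.503). This level is below 1 RPKM, so ITGB6 is not among the 9, and its scaled log2 ratio was 2.58 (1.59 to 3.57) from UT and 2.04 (1.24 to 2.85) from Ni-E cells. Without median scaling, these ratios of ITGB6 were 2.10 and 1.73. ITGA6 had 2.36 RPKM (2.10 to 2.66), with a ratio of -0.01 (-0.23 to 0.22).

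The remaining 6 promoters, with ITGA3 and ITGB1 among them, had scaled log2 ratios from UT below 0, with intervals that excluded 0. ITGA3 was at 6.13 RPKM (5.70 to 6.59; scaled ratio -0.50), ITGA5 to 5.22 RPKM (4.83 to 5.65; -0.43) and ITGB1 to 7.10 RPKM (6.64 to 7.59; -0.27). ITGA2 was at 2.10 RPKM (1.85 to 2.37; -0.44), ITGB3 at 2.22 RPKM (1.97 to 2.51; -0.45) and ITGB4 at 1.68 RPKM (1.46 to 1.93; -0.50). The median ratio of all promoters with at least 1 RPKM was -0.32, and that of the 10 members -0.35. These ratios stayed below 0 under every scaling tried, except that of ITGB1, whose score turned to 0.018 with the median over promoters with at least 1 RPKM. How many members were past 1.5-fold depended on the scaling. Without median scaling, 6 members were past 1.5-fold lower and 0 higher in Ni-W against UT cells, and 5 lower and 1 higher (ITGA4) against Ni-E cells. The share of all promoters past 1.5-fold was not counted without that scaling. Unscaled, the median promoter itself was lower in Ni-W cells, at 1.12 RPKM against 1.57 in UT and 1.39 in Ni-E cells. These counts are therefore not a result about the members.

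The 4 members with a scaled ratio at or above about 0 lie on chromosome 2, within 26.4 Mb, in the order ITGB6, ITGA6, ITGA4 and ITGAV. ITGB6, ITGA4 and ITGAV were above 0 under every scaling tried, whereas ITGA6 had a log2 ratio of -0.49 without median scaling and 0.31 after quantile normalization. The 6 members below 0 lie elsewhere, ITGB3, ITGA3 and ITGB4 on chromosome 17, ITGA2 on 5, ITGB1 on 10 and ITGA5 on 12. Except around ITGA6, other promoters within 5 Mb of these members moved in like directions. The median scaled log2 ratio of Ni-W to UT of those with at least 1 RPKM was 0.55 around ITGA4 (25 promoters) and 0.55 around ITGAV (30), windows that overlap, 0.30 around ITGA6 (50) and 0.29 around ITGB6 (21). It lay between -0.52 (ITGB4) and -0.24 (ITGA2) around the other 6. The windows of ITGA6 and ITGA4 overlap as well, as do those of ITGB3 and ITGA3, so these medians share promoters. ITGA6 itself, at -0.01 (-0.23 to 0.22), lay below the median of the promoters around it. Between ITGB6 and ITGAV, 91.6% of 83 promoters were above 0, against 21.8% of 12697 promoters with a known position. The same stretch gained reads at 45 promoters with almost no mark (below 0.6 RPKM in all 3 libraries), by 0.68 on the log2 scale relative to all such promoters (counting error ± 0.11 at 95%). ITGB6 falls in this low class itself. Within 5 Mb of ITGB6, 16 other such promoters gained 0.89 ± 0.19 on that scale, which is not the scaling of the ITGB6 ratio above. The part of this gain over the whole stretch in the ratios of ITGA4, ITGAV, ITGA6 and ITGB6 was not tested. Nor was the number of copies of this stretch in the Ni-W clone. In Ni-E against UT cells the 45 low promoters between ITGB6 and ITGAV differed by -0.03 ± 0.12.

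**Figure D5:**
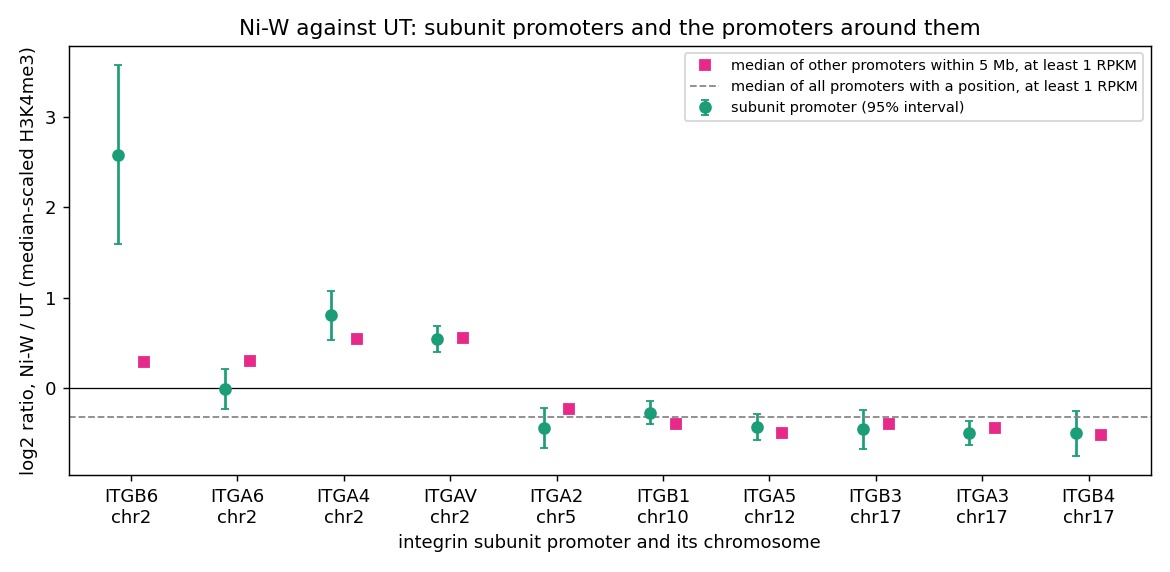
Scaled log2 ratio of Ni-W to UT H3K4me3 (y axis) for each subunit promoter, with its 95% counting interval (circles), ordered by chromosome. Squares give the median of the other promoters within 5 Mb that have at least 1 RPKM, a level that ITGB6 itself does not reach. Some of these windows overlap. The squares are at 0.29 to 0.55 around the 4 members on chromosome 2 and below 0 around the other 6, and the dashed line is the median of all promoters, at -0.32.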

How the data were processed

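RNA-Seq of RT4 cells (6 samples) and H3K4me3 ChIP-Seq of BEAS-2B cells (3 libraries) were analysed. The deposited RNA-Seq files hold, for each gene, an estimated count from RSEM with its TPM and FPKM, all made by the authors. The paper's methods name STAR with hg19 and DESeq2 and the submitters' processing notes name GRCh38, and which build the RSEM values come from is not given in the sources used here. The kit is not stated to keep strand, so antisense reads cannot be told apart. After rounding, the deposited estimated counts entered edgeR 4.0.16 (quasi-likelihood, TMM, filterByExpr, 1 model of 3 groups, no block) in R 4.3.3, with Benjamini-Hochberg adjustment over 14502 genes. CPM values are TMM-normalised. Deposited TPM values gave levels between genes and the limma 3.58.1 alternative, and deposited FPKM values entered no test. Replicates are described as biological without further detail, so p-values measure the spread between these samples.

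ChIP-Seq reads were mapped by the authors with BWA (hg38), redundant reads were collapsed, and the RPKM of every promoter, 2 kb to either side of the start, was deposited. These RPKM values are whole multiples of 1 step per library (100% within 0.0006 RPKM), which gave reads and depth. Levels were divided by the library median. A score, the difference of the square roots of the scaled levels, followed the paper's formula and was used only to compare settings.

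The members and the gene lists were chosen with earlier results of these data known. Named genes are all members, list genes called in at least 1 RT4 comparison (at most 4 per list and comparison), other integrin subunits that reach a mean of 1 TPM, and the promoters with the highest and lowest UT level or past 1.5-fold. Genes named from the blocked fit, and ITGB1 in place of ITGA3 among the sequences, were chosen after their values were seen. GC content is that of the canonical GENCODE 44 transcript, known for 90.2% of the listed genes. Positions were known for 86.6% of the promoters. Where RefSeq gave several starts (ITGA6, ITGAV, ITGB1), the most upstream was used.

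One sample of each group carries a suffix for a duplicate in its title, and this gave the replicate numbers. Deviations from the group means of same-numbered samples correlated at 0.657 (UT and Ni-E), 0.764 (UT and Ni-W) and 0.689 (Ni-E and Ni-W), so the numbers were taken to pair the samples, although there are only 2 numbers and the counts of blocked calls had been seen before. The blocked fit is therefore given beside the results it changes.

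Tested on simulated Ni-E against UT libraries, the model recovered 100 of 100 genes changed 2-fold and 100 of 100 changed 3-fold at a low spread (14331 genes). At the spread of these libraries without the block, it recovered 0 of 100 changed 2-fold and 16 of 100 changed 3-fold, with 2 false calls (14324 genes). A first criterion for this check, set on the spread of these libraries, was not met, and was replaced after the low-spread run.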

Additional observations from a re-analysis of the deposited data

How the results depend on the processing

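The alternatives for RT4 RNA were RLE size factors, DESeq2 1.42.0, limma on log2(TPM + 1) and on log2(TPM + 0.1), no filter, a minimum of 10 counts in all samples, only the 2 groups compared, the replicate block, and each sample left out. A GC offset, alone and with the block, was added after seeing the data. Leaving out a sample leaves 1 in its group, which is then assumed to vary like the others.

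In Ni-E against UT cells, higher and lower calls were 211 and 103, and they became 461 and 269 with DESeq2, 107 and 63 with limma at + 1, 112 and 61 at + 0.1, 1108 and 725 with the replicate block, and 1157 and 774 with the GC offset and replicate block. Higher calls were 139 with at least 10 counts, and lower calls were 173 with the GC offset. In Ni-W against UT cells, they were 73 and 14, and became 342 and 100 with DESeq2, 162 and 31 with no filter, 46 and 8 with at least 10 counts, 153 and 32 with the GC offset, 840 and 403 with the replicate block, 895 and 479 with the GC offset and replicate block, and 0 and 0 with only the 2 groups (941 genes at an unadjusted p under 0.05). In Ni-W against Ni-E cells, they were 0 and 0, and became 89 and 50 with DESeq2, 5 and 6 with limma at + 0.1, 9 and 5 with no filter, 394 and 261 with the replicate block, and 489 and 347 with the GC offset and replicate block. With 1 sample left out, higher calls were 0 to 25 and lower calls 0 to 19 in Ni-E against UT, 0 to 35 and 0 to 3 in Ni-W against UT, and 0 in Ni-W against Ni-E cells. The cause of these moves was not tested.

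Of the subunits, only ITGA2 and ITGA6 in Ni-E against UT and ITGA2 and ITGAV in Ni-W against Ni-E cells passed the call, under the replicate block with and without the GC offset, and under no other alternative. In Ni-W against UT cells, ITGB4 turned to 0.0202 with limma at + 1 and at + 0.1, 0.049 with the GC offset and 0.044 with the offset and block, and ITGB6 to -0.092 and -0.10 in the last 2. The other 226 of 240 log2 fold changes kept their direction and call.

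With 1 sample left out, log2 fold changes in Ni-E against UT cells were 0.33 to 1.93 for ITGA2, 0.18 to 1.60 for ITGA6, -0.29 to 0.34 for ITGA5, -0.68 to 0.52 for ITGAV, -0.60 to 1.34 for ITGB1, -0.0027 to 0.12 for ITGB4 and -0.68 to -0.27 for ITGB6. In Ni-W against UT cells they were -0.86 to 1.36 for ITGA2, -0.041 to 0.091 for ITGA3, -0.058 to 0.19 for ITGA5, -0.58 to 1.38 for ITGA6, -0.46 to 1.31 for ITGAV, -1.12 to 1.62 for ITGB1, -0.076 to 0.023 for ITGB4 and -0.40 to 0.37 for ITGB6. In Ni-W against Ni-E cells they were -1.86 to 0.11 for ITGA2, -0.27 to 0.36 for ITGA5, -1.29 to 0.39 for ITGA6, -0.31 to 1.40 for ITGAV, -1.31 to 1.08 for ITGB1 and 0.10 to 0.86 for ITGB6. None of these left-out fits called a subunit.

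For H3K4me3, no median scaling gave 0 members past 1.5-fold higher and 6 lower in Ni-W against UT, and 5 lower in Ni-W against Ni-E cells. Shares of all promoters past 1.5-fold were counted only with scaling to the library median. Quantile normalization, and the median over promoters with at least 1 RPKM, each gave 2 higher in both comparisons. Signs of 30 scores changed for 5 without median scaling, 8 with quantile normalization, 11 with that median and 0 with log2 of the scaled level + 1. With 1 library per condition, differences have no replicate check.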
